A study of Mus musculus with 5 samples.

Results

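Blood cells of mid-gestation mouse embryos had been sorted for the absence of blood surface antigens. Of 294 analysed cells, 60 passed limits set on transcripts of red cells or immature blood cells. The 60 cells were chosen by 3 genes. A cell was called erythroid when Alas2, the enzyme that starts haem synthesis in red cells, reached 400 CPM (a gene's share of the cell's molecule count, scaled to a total of 1000000), which held for 46 cells. A cell below that level was called a progenitor when Myb and Gfi1b, transcription factors of immature blood cells, each reached 30 CPM, which held for 14 cells. The remaining 234 cells are called the other cells and serve as the comparison. Because Alas2, Myb and Gfi1b chose the cells, their levels are given as a description only.

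Per the labels, the cells came from wild-type C57BL/6 embryos at embryonic day 9.5 (E9.5, 2 batches) and embryonic day 10 (E10, 3 batches). In E10 replicate 1, 25 of 87 kept cells held over 3 counts of a row named RGC-GFP, which stands beside the mouse genes in the table, and whether they came from such embryos was not tested. Blood in the heart is labelled as the source, and the sort took cells without TER119, CD41, CD43 or CD45 on their surface, which are antigens of red cells, of megakaryocytes and early blood progenitors, and of white cells. The cells were picked singly and read with a modified STRT-seq protocol that counts each molecule by a unique molecular identifier (UMI). The labels name the cells non-hematopoietic, and they do not tell if a batch was a litter or how many embryos it pooled, so the p-values measure only the spread between these batches, which may be technical.

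The first red cells of the mouse are made in the yolk sac and mature while they circulate, with embryonic globins in place of the adult chains. Red cell genes are switched on by a small set of factors, among them Gata1, Klf1 and Tal1, and the cell then makes haem, globin and a membrane skeleton in large amounts. A second wave of yolk sac progenitors, the erythro-myeloid progenitors, carries Kit, Runx1 and Myb and enters the circulation at about this age. Early red cells of the first wave do not need Myb, and later waves do.

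The DNA just upstream of 3 of these genes is shown because GATA1, the lead factor of the lineage, was high in both groups of cells, as given further on. The sequences are the 250 bases before the annotated start in RefSeq for GRCm38.p6, read 5′ to 3′ on the strand of the gene. Capitals mark a GATA match, which is AGATAA or its variant ending in G, AGATAG, and likewise TGATAA or its variant ending in G, TGATAG, on either strand.
Alas2, chrX:150547167-150547416, plus strand: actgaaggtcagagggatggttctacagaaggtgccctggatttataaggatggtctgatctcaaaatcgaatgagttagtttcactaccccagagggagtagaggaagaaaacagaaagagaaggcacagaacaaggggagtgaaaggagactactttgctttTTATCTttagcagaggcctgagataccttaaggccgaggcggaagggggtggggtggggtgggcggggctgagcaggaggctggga
Klf1, chr8:84901732-84901981, plus strand: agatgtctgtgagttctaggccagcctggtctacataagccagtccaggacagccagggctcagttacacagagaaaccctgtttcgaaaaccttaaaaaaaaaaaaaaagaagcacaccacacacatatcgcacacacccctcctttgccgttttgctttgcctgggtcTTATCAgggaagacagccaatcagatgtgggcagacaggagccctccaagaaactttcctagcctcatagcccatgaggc
Gfi1b, chr2:28621983-28622232, minus strand: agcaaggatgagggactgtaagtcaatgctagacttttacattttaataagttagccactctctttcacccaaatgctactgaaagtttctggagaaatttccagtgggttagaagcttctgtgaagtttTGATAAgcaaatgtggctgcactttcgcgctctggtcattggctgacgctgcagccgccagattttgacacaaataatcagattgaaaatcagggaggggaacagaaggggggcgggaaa
Each of the 3 windows held 1 match, and the window of Myb on chr10:21160985-21161234 held 0. Of 32851 mouse promoters of the same length, 8718 (26.5%) held at least 1 match. A match is a description of the letters and does not show binding.

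Each batch was listed with 96 wells, numbered alike in all 5 batches. Of the 480 wells, 369 held UMIs and 111 held none. Minimums of 1000 genes and 30000 UMIs were passed by 294 wells. The kept cells held 31294 to 1407021 UMIs each, and the batches 7545865 to 44415774 UMIs in all. The erythroid cells had a median of 371308 UMIs and the progenitors 524864, against 279242 in the other cells. In 19 of the 60 cells the well number was also that of a member in another batch. The 11 pairs of members with the same number in different batches correlated at a median of 0.821 across genes, against 0.806 for 1142 pairs with different numbers.

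The 2 batches of E9.5 held 1 and 10 erythroid cells, and the 3 batches of E10 held 1, 23 and 11. The progenitors numbered 0, 4, 0, 7 and 3 in the same order. Gene tests therefore used E9.5 replicate 2 and E10 replicates 2 and 3, which had at least 3 cells of each class. The only erythroid cell of E10 replicate 1 stood apart from the other 45. It had no UMI of Gata1, of which the remaining erythroid cells had at least 26.3 CPM. It held 1561 UMIs of Dppa5a, 257 of Zfp42 and 88 of Nanog, genes of pluripotent and early germ cells. It also held 127 counts of the row named RGC-GFP. In the same batch, 24 other cells had over 3 RGC-GFP counts, and these were 24 of the 25 other cells with Dppa5a of at least 100 CPM. This cell enters the counts of cells and the shares, which are also given without the 25 cells, and no gene test.

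Of the 3 genes of the rule, Alas2 separated erythroid cells from the rest by a clear margin. Over all batches, Myb and Gfi1b separated progenitors from other cells only together. Alas2 ran from 616 to 2143 CPM with a median of 1104 in the erythroid cells. It ran from 7.31 to 157 CPM in the progenitors and from 0 to 343 in the other cells. The lowest erythroid cell had 42 Alas2 UMIs and the highest other cell 50, both in E10 replicate 2. In that batch the other cells had a median Alas2 level of 130 CPM, against 0 to 25.5 in the remaining batches. Myb ran from 49.8 to 346 CPM in the progenitors and reached 123 in other cells, in E10 replicate 3. It ran from 0 to 21.2 CPM in the erythroid cells, of which 16 had no Myb UMI. Gfi1b overlapped between both classes, at 52.1 to 632 CPM in the progenitors and 6.38 to 236 in the erythroid cells. Other cells reached 58.1 CPM of Gfi1b, in E10 replicate 2. The progenitor with the least Myb had 26 Myb UMIs and the one with the least Gfi1b had 39 Gfi1b UMIs, while the other cell nearest to both limits stood at 33.7 CPM of Myb (12 UMIs) and 22.5 of Gfi1b (8 UMIs).

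**Figure D1:**
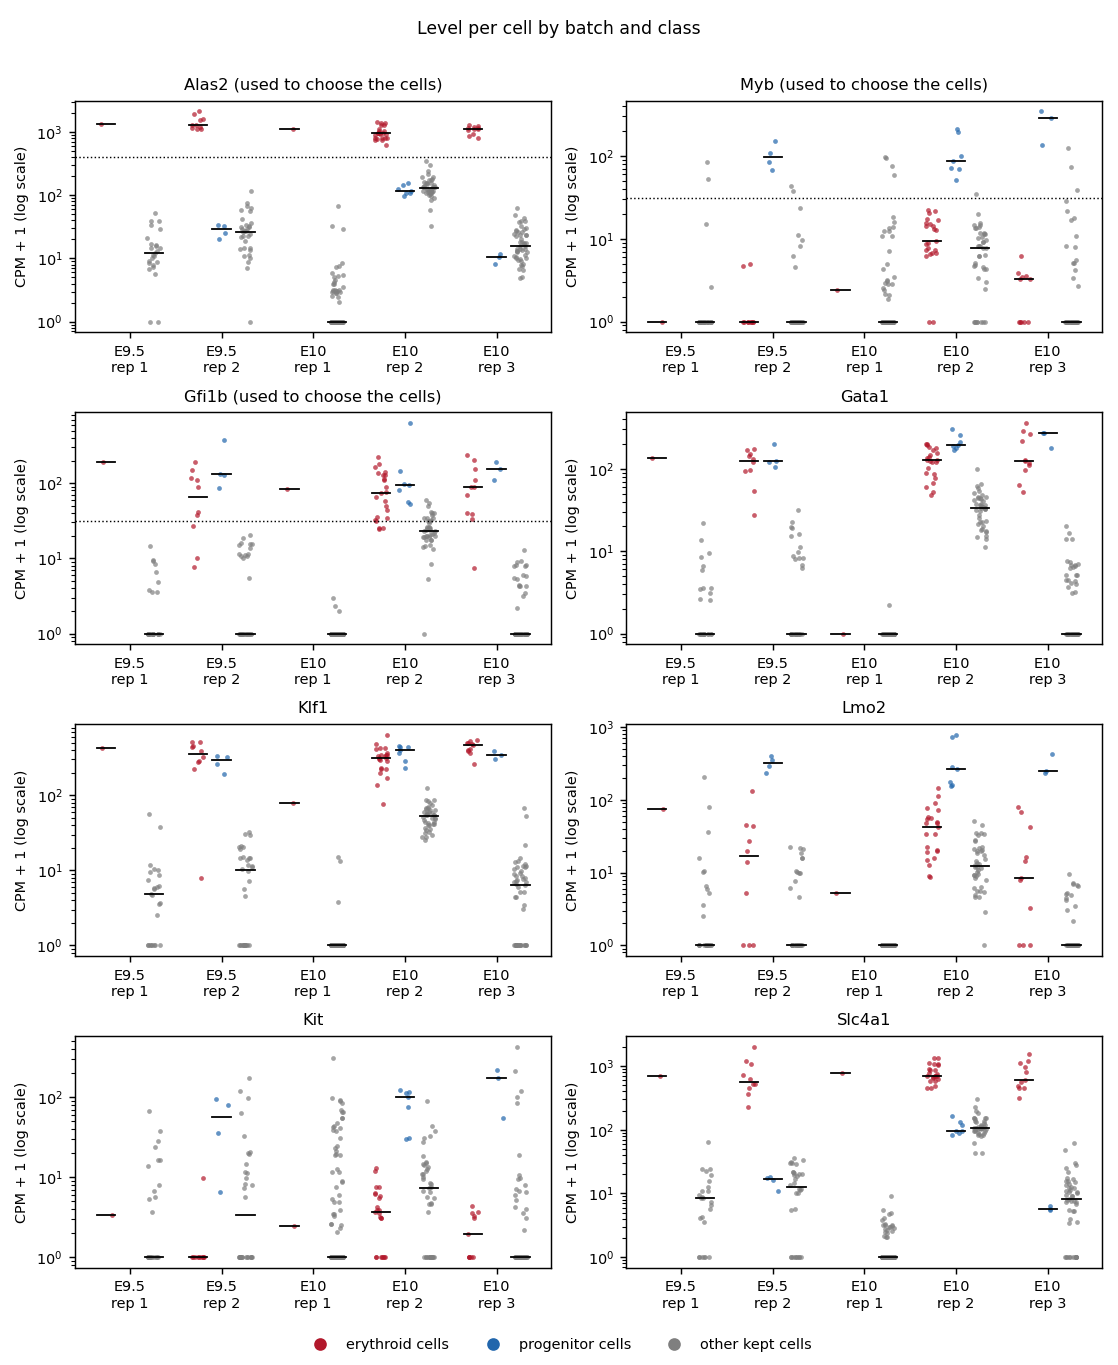
Level of 8 genes in every kept cell, as CPM + 1 on a log axis, by batch (x axis) and class (colour); black bars are medians and dotted lines the limits of the rule. Progenitor cells reach the erythroid level of Gata1 and Klf1 while their Slc4a1 lies with that of the other cells of the same batch.

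The share of erythroid cells was highest in E10 replicate 2, at 31.9% (95% exact Clopper-Pearson interval 21.4% to 44.0%). It was 21.7% in E9.5 replicate 2 (10.9% to 36.4%) and 17.5% in E10 replicate 3 (9.05% to 29.1%). The share was 3.85% in E9.5 replicate 1 (0.0973% to 19.6%) and 1.15% in E10 replicate 1 (0.0291% to 6.24%). The latter is the 1 cell with RGC-GFP counts, and without the 25 such cells it was 0 of 62, which leaves room for 4.84%. For progenitors the share was 9.72% in E10 replicate 2 (4.00% to 19.0%), 8.70% in E9.5 replicate 2 (2.42% to 20.8%) and 4.76% in E10 replicate 3 (0.993% to 13.3%). None were seen in E9.5 replicate 1 or E10 replicate 1, for which a count of 0 leaves room for shares of 11.5% and 3.45% (3 cells of each total). Batches of 1 stage thus differed more than the stages did. At E9.5 the erythroid share averaged 12.8% ± 12.7 (SD over 2 batches), and at E10 16.9% ± 15.4 (SD over 3 batches). The difference of 4.06 percentage points gave an exact permutation p of 0.9, two-sided, and was 3.68 points without the RGC-GFP cells. Progenitors averaged 4.35% ± 6.15 and 4.83% ± 4.86, a difference of 0.480 points with an exact permutation p of 0.8. The 10 splits of 5 batches cannot give a p below 0.1, the 2 tests were not adjusted, and the antibody sort and the hand picking of cells can set these shares. Intervals and limits cover counting error only.

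**Figure D2:**
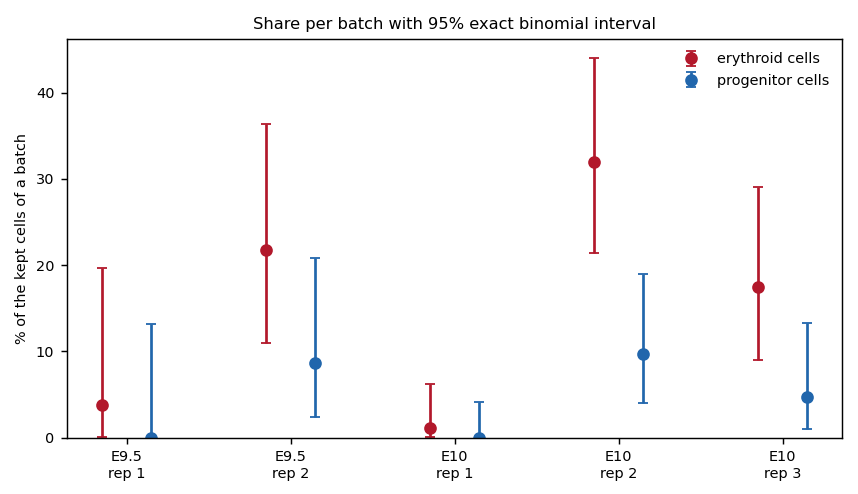
Share of erythroid and progenitor cells among the kept cells of each batch in percent, with 95% exact binomial intervals as bars. E9.5 replicate 1 and E10 replicate 1 lie lowest for both classes, at 3.85% and 1.15% for erythroid cells and 0 for progenitors.

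Levels of the other 5 marker genes describe the groups as formed, since these genes can vary with the 3 that chose the cells. Slc4a1, the anion exchanger band 3 of the red cell membrane, ran from 229 to 2013 CPM in the erythroid cells of E9.5 replicate 2. Its range was 446 to 1331 CPM in E10 replicate 2 and 309 to 1532 in E10 replicate 3. The 14 progenitors stayed far below. The 4 progenitors of E9.5 replicate 2 had 10.01, 16.5, 15.1 and 17.4 CPM of Slc4a1, and the 3 of E10 replicate 3 had 4.69, 4.57 and 5.41. The other cells of those batches had medians of 11.5 and 7.21 CPM. In E10 replicate 2 the 7 progenitors had a median of 93.8 CPM of Slc4a1, and the other cells 106. The Slc4a1 of the progenitors thus did not stand out from that of the other cells of the same batch.

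Gata1, by contrast, was as high in progenitors as in erythroid cells. The progenitors of E9.5 replicate 2 had 202, 121, 103 and 125 CPM of Gata1 and those of E10 replicate 3 had 268, 179 and 271. In E10 replicate 2 Gata1 ran from 169 to 306 CPM in the progenitors, from 47.1 to 199 in the erythroid cells and from 10.2 to 98.6 in the other cells. Klf1, the factor that opens globin and membrane genes, gave the same picture. It stood at 330, 319, 193 and 264 CPM in the progenitors of E9.5 replicate 2 and at 307, 387 and 343 in those of E10 replicate 3. In all 3 batches the lowest progenitor lay above the highest other cell for both Gata1 and Klf1. The erythroid cells overlapped with the progenitors, at medians of 355, 314 and 472 CPM of Klf1 in the 3 batches.

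Kit, the receptor for stem cell factor, and Runx1, the factor needed for the definitive waves, were carried by progenitors unevenly. The progenitors of E9.5 replicate 2 had 34.3, 5.50, 78.6 and 92.8 CPM of Kit, and those of E10 replicate 3 had 216, 175 and 54.1. In E10 replicate 2 Kit ran from 28.7 to 122 CPM in the progenitors, with a median of 100.5. The highest erythroid cell of any batch had 11.9 CPM of Kit, but single other cells reached 429 CPM. Runx1 stood at 10.01, 16.5, 127 and 37.7 CPM in the progenitors of E9.5 replicate 2 and at 79.8, 131 and 27.1 in those of E10 replicate 3, and 1 of the 7 progenitors of E10 replicate 2 had none. Runx1 and Kit thus overlapped between progenitors and other cells, while the Kit of all but 1 progenitor exceeded that of every erythroid cell.

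Most myeloid, mast cell and lymphoid markers were at 0 in the progenitors, whose megakaryocyte markers had the highest sums in E10 replicate 2. Of the myeloid markers Mpo, Elane, Csf1r, Lyz2 and Tyrobp had 0 UMIs in the 14 cells, and Spi1 had 36. The mast cell markers Cpa3, Ms4a2 and Hdc and the lymphoid markers Il7r, Rag1, Cd79a and Cd3e had 0 UMIs in the progenitors and in the erythroid cells. Cd34, the usual surface marker of blood progenitors, had 1 UMI in the 14 progenitors, and Flt3 had 0. The 6 megakaryocyte markers summed to a median of 18.0 CPM in the progenitors, with a range of 0 to 202, and Gp1bb was at 0. In the 7 progenitors of E10 replicate 2 the median was 40.1 CPM (13.3 to 202), against 8.67 (0 to 348) in the other cells of that batch. The 4 progenitors of E9.5 replicate 2 had a median of 15.9 CPM (0 to 30.2), against 0 (0 to 62.7) in its other cells. The 3 progenitors of E10 replicate 3 had 1.83 CPM (0 to 5.41), against 0 (0 to 66.4). The erythroid cells had a median of 11.0 CPM (0 to 121). The part of these markers in the results was not tested. The 7 mesenchymal markers summed to a median of 55.5 CPM in the progenitors and 75.2 in the erythroid cells, with ranges of 21.9 to 143 and 22.0 to 256, against 1084 in the other cells. The names progenitor and erythroid are used below for the cells as chosen.

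Embryonic globin transcripts filled the erythroid cells and lay near the level of the other cells of the batch in the progenitors. Hbb-y, Hbb-bh1 and Hba-x, the beta-like and alpha-like chains of embryonic haemoglobin, together took a median of 13.1% of the UMIs of an erythroid cell in E9.5 replicate 2 (9.14% to 26.2%), 18.6% in E10 replicate 2 (13.7% to 27.0%) and 21.9% in E10 replicate 3 (11.4% to 27.4%). The single erythroid cells of E9.5 replicate 1 and E10 replicate 1 had 11.5% and 19.7%. The progenitors had medians of 1.66%, 3.75% and 0.745% in the same 3 batches. The other cells had medians of 1.49%, 5.54% and 0.908%, so the share in progenitors followed that of their batch. The globin share of other cells was lowest in E10 replicate 1, at 0.0335%. Free globin RNA in the wells was not measured apart from the cells, and its part in the values of progenitors and other cells was not tested.

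In the summed counts of the 3 batches, scaled by edgeR's trimmed mean of M values (TMM), Hbb-y stood at 89229 ± 14417 CPM (mean ± SD, n = 3 sums) in erythroid cells, 7443 ± 5197 in progenitors and 8437 ± 6445 in other cells. The log2 fold change of erythroid against other cells was 3.78 (SE 0.36, adjusted p 3.77e-08 by the quasi-likelihood test of edgeR), with Hbb-bh1 at 4.12 and Hba-x at 4.06. For progenitors against other cells the log2 fold changes were -0.15, 0.19 and -0.08 for Hbb-y, Hbb-bh1 and Hba-x, and none passed an adjusted p of 0.05. Alas2 chose the erythroid cells, and globin and Alas2 are known to be made together, so the erythroid test describes the groups as formed.

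**Figure D3:**
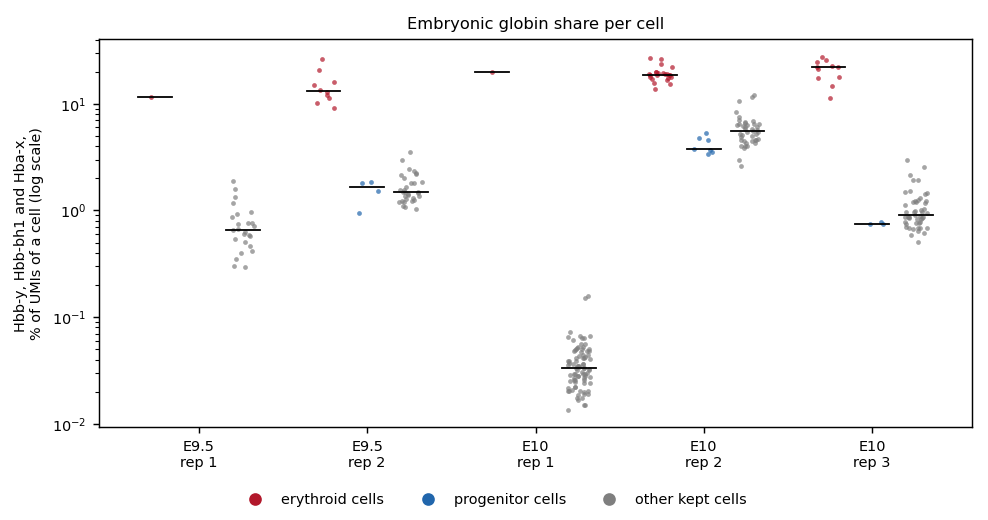
Share of a cell's UMIs that came from Hbb-y, Hbb-bh1 and Hba-x, in percent on a log axis, for every kept cell by batch and class, with medians as black bars. Erythroid cells lie at 9.14% to 27.4%, and progenitor cells at the level of the other cells of their batch.

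The embryonic globins Hbb-y and Hba-x went together from cell to cell, and Hbb-bh1 followed Hbb-y less closely in E10 replicate 2. Within the erythroid cells of 1 batch, Hbb-y and Hba-x went together at a Spearman rho of 0.988 (10 cells), 0.970 (23 cells) and 0.973 (11 cells), over cells that share a library and a denominator. For Hbb-y and Hbb-bh1 the rho was 0.988, 0.782 and 0.973 in the same batches. The ratio of Hbb-bh1 to Hbb-y in single erythroid cells ran from 0.672 to 0.827 in E9.5 replicate 2, from 0.440 to 0.661 in E10 replicate 2 and from 0.757 to 0.897 in E10 replicate 3. The summed ratio of Hbb-bh1 to Hbb-y was 0.746 in the erythroid cells of E9.5 replicate 2, 0.596 in E10 replicate 2 and 0.847 in E10 replicate 3, so the lowest and the highest ratio both came from E10. It was 0.563, 0.838 and 1.01 in the progenitors and 0.444, 0.789 and 0.569 in the other cells of those batches. The ratio of 1.01 rests on 3 cells, of which 1 had a ratio of 1.47. With a single E9.5 batch of at least 3 erythroid cells, the stages were not tested within the class.

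Erythroid cells with a larger globin share were shallower. The share went with the total UMIs at a Spearman rho of -0.915, -0.863 and -0.927 in the E9.5 batch and the 2 E10 batches of the gene tests, over 10, 23 and 11 cells of 1 library each, and globin is part of both measures. The share went with Alas2 at -0.0788, -0.175 and -0.0727 only. Alas2 and Slc4a1 went together at 0.212, 0.465 and 0.427. Erythroid cells also showed fewer genes at an equal total of UMIs. Globin counted in that total, at medians of 13.1%, 18.6% and 21.9% in erythroid cells, and its part was not tested. With each cell thinned to 30000 UMIs, the median was 3737.5, 4526 and 3576 genes in erythroid cells, 4682.5, 5090 and 4682 in progenitors and 4302, 5067.5 and 4445 in other cells, in the same order of batches. Without thinning the medians over all kept cells were 8298.5, 9036.5 and 7132.5 genes.

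Adult-type globins were all but missing. Hba-a2 had 8 UMIs in the 46 erythroid cells, 1 in the 14 progenitors and 1 in the other cells. Hba-a1, Hbb-b1, Hbb-b2, Hbb-bs and Hbb-bt are listed at 0 in all 294 cells. These genes have near-identical copies, and the glycolytic gene Eno1, which most cells use, is also listed at 0, so their true level cannot be read from the table.

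Beyond the genes of the rule, 3 comparisons were fitted over 11011 genes, with a batch term and the 9 sums of 3 classes in 3 batches. Against the other cells, 1417 genes (12.9%) were higher and 1585 (14.4%) lower in erythroid cells (27.3% in all), and 1510 (13.7%) were higher and 1974 (17.9%) lower in progenitors (31.6%), at an adjusted p of 0.05. Between the classes, 314 genes (2.85%) were higher and 273 (2.48%) lower in erythroid cells than in progenitors (5.33%). Counts of list members given below are to be read beside these shares. A gene could enter the tests through the counts of 1 class alone, so the tested part of a list does not stand for the whole list. The other genes can vary with the 3 that chose the cells, so these p-values describe the groups as formed. The sums differed in composition, and globins were a large part of the erythroid ones. Scaling by totals alone moved the median log2 fold change of all genes from -0.23 to -0.997, from -0.17 to -0.46 and from 0.08 to -0.40 in the 3 comparisons. It gave 521 higher and 3563 lower, 1061 higher and 2340 lower, and 184 higher and 1188 lower. The part of globins or of any other genes in these shifts was not tested. Changes are given on the TMM scale, relative to the bulk of genes, and lists whose direction turned on the other scale are named. The comparisons with other cells share those cells, and the values of both classes are set side by side.

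Most haem synthesis genes were higher in both classes than in other cells. Of 16 genes besides Alas2, 14 were higher in erythroid cells than in other cells and 0 lower, with a median log2 fold change of 3.57 against -0.23 for all genes. In progenitors 9 were higher and 0 lower, with a median of 1.12. The early enzyme Alad stood at 1115 ± 192 CPM in erythroid cells, 462 ± 27.7 in progenitors and 72.9 ± 34.5 in other cells. Every sum of erythroid cells lay above every progenitor sum for Alad, and every progenitor sum above every sum of other cells. Over all genes, the erythroid sums lay wholly above those of other cells for 18.2%, the progenitor sums above those of other cells for 17.7%, and the erythroid above the progenitor sums for 9.61% and below them for 8.72%.

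The later enzymes did not all move alike in progenitors. Cpox, the coproporphyrinogen oxidase, stood at 902 ± 240 CPM in erythroid cells, 613 ± 132 in progenitors and 42.7 ± 24.3 in other cells, with log2 fold changes of 4.47 (SE 0.30) and 3.90 (SE 0.30) against other cells. The difference of erythroid cells and progenitors was 0.56 (SE 0.26) and did not pass (adjusted p 0.239 by edgeR). In single cells the lowest progenitor had 258 CPM of Cpox in E9.5 replicate 2, 522 in E10 replicate 2 and 481 in E10 replicate 3, and the highest other cell had 139, 441 and 354. Ppox, the step after Cpox, had 207 ± 13.4 CPM in erythroid cells, 28.3 ± 18.0 in progenitors and 38.4 ± 8.28 in other cells. Its progenitor difference of -0.51 did not pass. Fech, which places the iron, was higher in both, at 691 ± 111, 176 ± 75.2 and 40.6 ± 20.0 CPM in erythroid, progenitor and other cells.

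Of the 16 genes, Slc25a37 differed most between erythroid cells and progenitors. This gene of mitoferrin, which carries iron into the mitochondrion, stood at 1614 ± 176 CPM in erythroid cells and at 113 ± 69.6 and 76.2 ± 74.8 in progenitors and other cells. Its log2 fold change was 4.14 (SE 0.39) for erythroid cells against progenitors and 0.75 for progenitors against other cells, which did not pass (adjusted p 0.1001 by edgeR). Tmem14c, a porphyrin carrier, was higher in both classes, at 2638 ± 910 and 1019 ± 130 against 204 ± 104 CPM, and differed less between them, at 1.37 (SE 0.30). Between erythroid cells and progenitors 11 of the 16 genes were higher and 0 lower, with a median of 1.87 against 0.08 for all genes. Alas1, the form of the first enzyme in other tissues, had 7.05, 4.25 and 19.7 CPM in the 3 classes and did not pass in any comparison.

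Genes of iron uptake were high in both classes. Of 12 genes 10 were higher in erythroid and 8 in progenitor cells than in other cells, and 0 were lower in either, which became 7 and 8 with 1 lower in each when scaled by totals. The transferrin receptor Tfrc stood at 689 ± 358 CPM in erythroid cells, 329 ± 42.6 in progenitors and 76.5 ± 36.0 in other cells. Tfr2 and Steap3, a second receptor and the endosomal iron reductase, stood at 33.5 ± 5.50 and 53.2 ± 27.1 CPM in erythroid cells, 24.03 ± 12.7 and 52.1 ± 15.8 in progenitors and 1.79 ± 1.77 and 3.73 ± 3.91 in other cells. Between the classes 3 were higher in erythroid cells and 0 lower, namely Fth1 and Ftl1, the ferritin chains, and Glrx5. Ferritin genes have many processed copies, so their level is uncertain.

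Red cell membrane and skeleton genes rose in both classes too, but the size differed gene by gene. Of 21 genes 20 were higher and 0 lower in erythroid cells, and 18 were higher and 0 lower in progenitors, with medians of 5.02 and 2.70 on the log2 scale. Rhag and Ermap, blood group membrane proteins, stood at 257 ± 78.9 and 349 ± 79.5 CPM in erythroid cells and at 129 ± 45.3 and 250 ± 113 in progenitors. The difference between the classes did not pass for Rhag, at 1.12 (SE 0.36), or Ermap, at 0.51 (SE 0.44). Slc4a1 lay at the other end. It stood at 989 ± 124, 37.8 ± 49.5 and 35.0 ± 45.7 CPM, a log2 fold change of 5.86 (SE 0.57, adjusted p 2.06e-07 by edgeR) between erythroid cells and progenitors. Epb4.2 and Dmtn, proteins that tie the skeleton to the membrane, differed between the classes at 3.82 and 3.78. In all, 12 of the 21 were higher and 1 lower in erythroid cells than in progenitors, against 8 and 1 when scaled by totals and 7 and 0 without the batch term. The 1 lower was Tspan8, at 2.04 ± 1.30 against 23.9 ± 7.96 CPM.

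**Figure D4:**
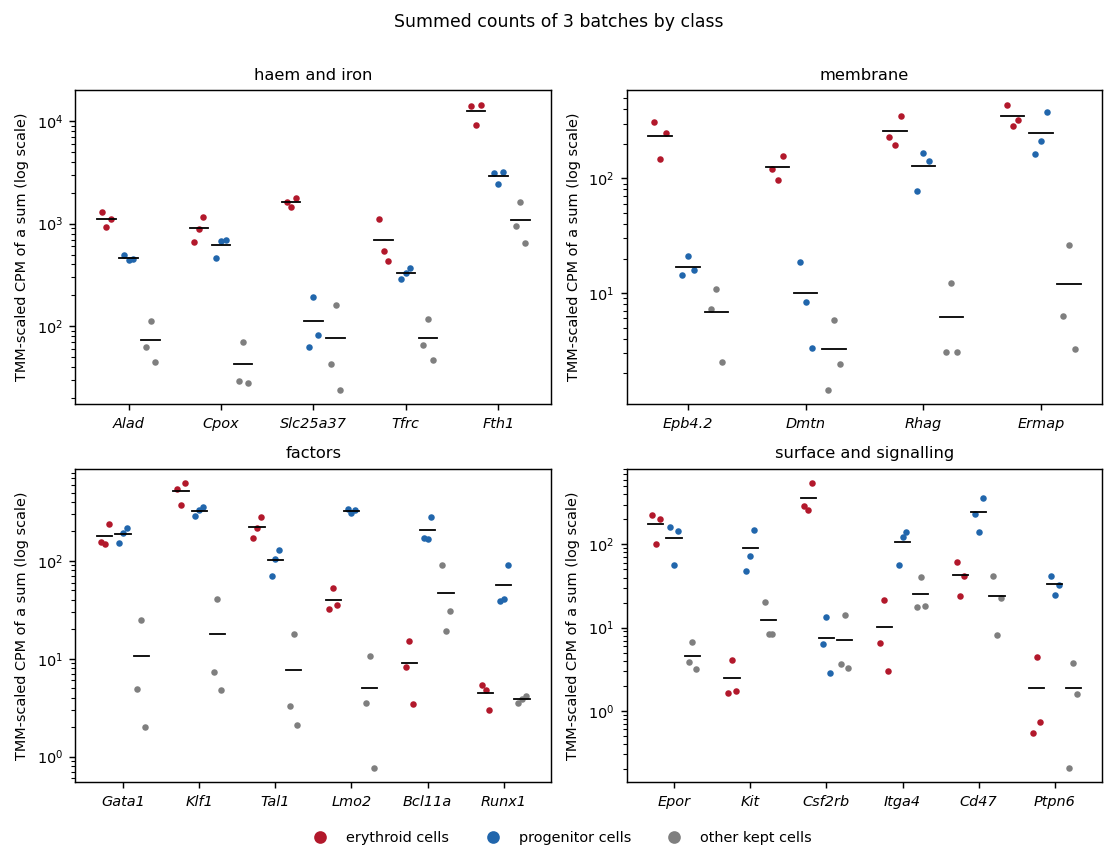
TMM-scaled CPM of the summed counts, on a log axis, for 21 genes of 4 groups, with 1 point for each of 3 batches per class and the mean as a black bar. The points of Gata1, Ermap and Epor overlap between erythroid and progenitor cells, while Lmo2, Bcl11a, Runx1, Kit, Itga4, Cd47 and Ptpn6 are higher in progenitors and Slc25a37 and Csf2rb in erythroid cells.

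Genes of 3 antigens used in the sort, CD43, CD41 and CD45, were read in the same cells. Spn, the gene of CD43, was found in progenitors. It stood at 28.7 ± 12.7 CPM in them, 1.49 ± 1.29 in erythroid cells and 0.929 ± 0.758 in other cells (log2 fold change 5.56, SE 1.06, adjusted p 0.000371 by edgeR for progenitors against other cells). In single progenitors Spn was 28.6, 27.5, 36.3 and 20.3 CPM in E9.5 replicate 2 and 9.39, 9.14 and 36.1 in E10 replicate 3, and 1 of 7 cells of E10 replicate 2 had none. Itga2b, the gene of CD41, stood at 20.4 ± 26.9 CPM in progenitors, 12.8 ± 4.06 in erythroid cells and 2.19 ± 2.51 in other cells, with the highest progenitor, at 200.3 CPM, in E10 replicate 2. Without that batch neither class passed for Itga2b, and the erythroid cells did not without E10 replicate 3 either. Of Ptprc, which encodes CD45, no UMI was found in the 294 cells.

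The core erythroid factors were shared by both classes. Of 23 erythroid factor genes besides Gfi1b 14 were higher in erythroid cells than in other cells and 3 lower, and 14 were higher and 0 lower in progenitors. Gata1 stood at 181 ± 49.0 CPM in erythroid cells, 187 ± 34.2 in progenitors and 10.6 ± 12.5 in other cells. The difference between the 2 classes was 0.00 with an SE of 0.46. Klf1 stood at 514 ± 129, 325 ± 32.6 and 17.8 ± 20.3 CPM, and Tal1 at 222 ± 55.1, 101 ± 29.4 and 7.71 ± 8.70. The class difference was 0.73 (SE 0.42) for Klf1 and 1.17 (SE 0.41) for Tal1, and neither passed. The standard errors leave room for a difference in either gene.

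A few factors did separate progenitors from erythroid cells. Lmo2, the bridging protein of the GATA1 and TAL1 complex, stood at 327 ± 14.5 CPM in progenitors, 40.0 ± 11.1 in erythroid cells and 4.998 ± 5.16 in other cells. Its log2 fold change of erythroid cells against progenitors was -3.13 (SE 0.44, adjusted p 3.37e-05 by edgeR). In single cells the progenitors of E9.5 replicate 2 had 402, 286, 354 and 235 CPM of Lmo2 and those of E10 replicate 3 had 244, 430 and 229, above the highest erythroid cells of those batches at 130 and 78.9 CPM. Bcl11a, the repressor of embryonic and fetal globin genes, was higher in progenitors and lower in erythroid cells than in other cells, at 207 ± 65.0, 8.96 ± 5.91 and 46.6 ± 38.0 CPM. The highest erythroid cell had 29.6 CPM of Bcl11a and the lowest progenitor 73.1, while other cells ran up to 592 CPM. Cbfa2t3, a corepressor of the same complex, was lower in erythroid cells than in progenitors at -1.83 (SE 0.52), and E2f2, a cell cycle factor of late red cell precursors, higher at 1.65 (SE 0.44).

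Of the progenitor factors besides Myb, few marked the progenitors. Of 16 genes 2 were higher and 9 lower in progenitors than in other cells, and 1 higher and 10 lower in erythroid cells. The 2 higher in progenitors were Runx1, at 57.3 ± 29.6 CPM against 4.43 ± 1.29 in erythroid and 3.84 ± 0.336 in other cells, and Hhex, at 24.4 ± 8.97 against 5.43 ± 1.04 and 0.420 ± 0.191. Runx1 was also the only one of the 16 that passed between the classes, at -3.63 (SE 0.64). Gata2, the factor of blood stem and progenitor cells, stood at 7.63 ± 10.1 CPM in progenitors and 17.8 ± 3.90 in other cells and did not pass there, and was lower in erythroid cells at -3.50 (SE 0.99). The genes that were lower in both classes, such as Meis1, Mecom, Fli1 and Hoxa9, also act in mesenchymal or endothelial cells. The part of such cells among the other cells in these values was not tested. Erg, Spi1, Cebpa, Hlf and Runx3 were too low to be tested, with 3, 36, 0, 0 and 17 UMIs in the 14 progenitors.

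Signalling genes divided into a shared and a class-specific part. Epor, the erythropoietin receptor, stood at 174 ± 65.2 CPM in erythroid cells, 121 ± 56.1 in progenitors and 4.60 ± 1.88 in other cells (log2 fold changes 5.07 and 4.52 against other cells, SE 0.43 in each). Single progenitors had 192, 148, 142 and 133 CPM of Epor in E9.5 replicate 2 and 61.0, 182 and 137 in E10 replicate 3. Of 16 genes of erythropoietin signalling 6 were higher and 0 lower in erythroid cells, and 10 did not pass. In progenitors 6 were higher and 1 lower, and 9 did not pass. Over all genes 12.9% were higher and 14.4% lower in erythroid cells, and 13.7% and 17.9% in progenitors. Pim1, a kinase gene switched on by STAT5, stood at 158 ± 52.0 CPM in erythroid cells, 38.5 ± 8.77 in progenitors and 35.4 ± 15.7 in other cells, and the class difference of 1.99 (SE 0.33) passed. Ptpn6, the phosphatase SHP-1 of blood cells, was higher in progenitors, at 33.1 ± 8.76 CPM against 1.90 ± 2.18 in erythroid cells, a class difference of -4.68 (SE 1.02). Socs3, a feedback inhibitor, was lower in progenitors at 0.913 ± 0.820 CPM against 16.6 ± 17.5 in erythroid cells, where the sums ran from 3.98 to 36.6 CPM.

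Among the surface receptors of early blood cells, Kit and Itga4 changed in opposite directions in the 2 classes. Kit stood at 89.9 ± 52.6 CPM in progenitors, 2.50 ± 1.41 in erythroid cells and 12.4 ± 7.02 in other cells, a class difference of -5.01 (SE 0.64, adjusted p 1.00e-05 by edgeR). The lower Kit of erythroid cells against other cells, -2.16 (SE 0.60), did not pass without E9.5 replicate 2. Itga4, the alpha-4 integrin, was higher in progenitors at 107 ± 43.6 CPM and lower in erythroid cells at 10.3 ± 9.73, against 25.5 ± 12.98 in other cells. Cd47, which protects cells from being eaten by macrophages, stood at 247 ± 112, 42.4 ± 18.5 and 23.99 ± 16.6 CPM in progenitors, erythroid and other cells. Cd44, the hyaluronan receptor, stood at 74.6 ± 26.5 CPM in progenitors and at 1.90 ± 2.18 and 3.70 ± 2.49 in the erythroid and other cells.

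Csf2rb, the common beta chain of the receptors for IL-3, IL-5 and GM-CSF, stood at 363 ± 157 CPM in erythroid cells, 7.599 ± 5.47 in progenitors and 7.11 ± 6.27 in other cells, a class difference of 5.80 (SE 0.51, adjusted p 5.68e-08 by edgeR). It has a near-identical neighbour, Csf2rb2, so its level is uncertain. In single erythroid cells Csf2rb ran from 2.92 to 609 CPM in E9.5 replicate 2, from 18.2 to 1067 in E10 replicate 2 and from 12.98 to 1458 in E10 replicate 3. Of the list of 24 receptor genes 10 could be tested. Of these 3 were higher and 4 lower in progenitors than in other cells, 2 higher and 7 lower in erythroid cells, and 1 higher and 4 lower in erythroid cells than in progenitors.

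General white cell genes were found in progenitors without those of mature myeloid cells. Of 27 genes of the myeloid and pan-leukocyte list 10 could be tested, and 6 of these were higher and 1 lower in progenitors than in other cells. In erythroid cells 1 was higher and 1 lower. A gene could enter the tests through progenitors alone, so these counts do not stand for the 27. Ptpn7, a phosphatase of blood cells, stood at 85.1 ± 21.0 CPM in progenitors, 2.05 ± 2.04 in erythroid cells and 1.15 ± 1.44 in other cells. Was, the actin regulator of Wiskott-Aldrich syndrome, stood at 36.3 ± 13.2, 0.743 ± 0.644 and 0.359 ± 0.573 CPM. Rac2, Cyba, Arhgdib and Laptm5 were the other 4. The remaining 17, among them Mpo, Ctsg, Ms4a3, Cd53 and Cybb with 0 UMIs in progenitors, were too low to be tested. Vav1 and Hcls1 had 59 and 52 UMIs in the 14 progenitors, against 6 and 31 in the 234 other cells.

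Megakaryocyte and endothelial genes gave single members. Fermt3, kindlin-3, which activates integrins in platelets and other blood cells, stood at 106 ± 48.0 CPM in progenitors, 8.82 ± 4.27 in erythroid cells and 2.27 ± 1.27 in other cells. Of the 22 megakaryocyte genes 8 could be tested, with 4 higher and 2 lower in erythroid cells and 3 higher and 2 lower in progenitors. Pf4 had 27 UMIs in erythroid and 7 in progenitor cells, and Vwf, Treml1, Selp and Gp6 had 0 in both. Tubb1, a tubulin of platelets and red cells, had 59 UMIs in the erythroid cells and 0 in the progenitors and other cells. Of 16 endothelial genes 5 could be tested, and Pecam1, Egfl7 and Icam2 were higher in progenitors, with Pecam1 at 6.45 ± 4.96 CPM, while Cdh5, Kdr, Flt1 and Esam had 0 UMIs in progenitors. Srgn, the serglycin core of blood cell granules, was the only testable gene of the mast cell list and stood at 30.2 ± 8.96 CPM in progenitors and 3.11 ± 4.48 in erythroid cells.

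Most genes of redox defence, haem handling and gas exchange were higher in both classes than in other cells. Of 14 such genes 11 were higher and 0 lower in erythroid cells, and 9 were higher and 0 lower in progenitors, against other cells. Carbonic anhydrase 2, Car2, stood at 3298 ± 807, 738 ± 135 and 82.3 ± 68.8 CPM in erythroid, progenitor and other cells, and Blvrb, biliverdin reductase B, at 1667 ± 475, 612 ± 117 and 67.6 ± 65.1. Bpgm, which makes the regulator of oxygen release 2,3-bisphosphoglycerate, stood at 641 ± 282 CPM in erythroid cells, 39.1 ± 20.1 in progenitors and 45.2 ± 10.6 in other cells, a class difference of 4.07 (SE 0.35). Car1 stood at 14.97 ± 13.01 CPM in progenitors, where the sum of the E9.5 batch and those of the 2 E10 batches had 21.4, 23.6 and 0 CPM, and at 1.64 ± 1.98 in erythroid cells. The metallothioneins Mt1 and Mt2, metal-binding proteins that were on no list and were chosen after their values were seen, separated every erythroid cell from the other cells of its batch. Mt1 ran from 5459 to 17838 CPM in the erythroid cells of the 3 batches, and the highest other cell of those batches had 3303 CPM.

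Glucose metabolism did not move as a block. Of 21 genes 4 were higher and 5 lower in erythroid cells than in other cells, beside 12.9% and 14.4% of all genes. In progenitors 9 were higher and 2 lower, beside 13.7% and 17.9%. By totals alone the progenitor count became 3 and 3, while 4 were higher when E9.5 replicate 2 or E10 replicate 3 was left out. Hk1, hexokinase 1, stood at 305 ± 119 CPM in progenitors, 138 ± 57.7 in erythroid cells and 26.6 ± 14.1 in other cells, and the class difference of -1.18 (SE 0.27) passed. Pklr, the pyruvate kinase of red cells and liver, stood at 128 ± 24.8, 59.0 ± 19.8 and 3.44 ± 4.39 CPM in erythroid, progenitor and other cells. Slc16a1, the lactate transporter MCT1, was higher in progenitors at 158 ± 63.4 CPM against 45.9 ± 13.8 in erythroid cells. Of the genes for autophagy and organelle loss 5 of 13 were higher and 0 lower in erythroid cells, beside 12.9% and 14.4% of all genes. By totals 3 were higher and 2 lower. The 5 were led by Trim10 and Ube2l6. Trim10, a ubiquitin ligase of late red cells, stood at 227 ± 94.9 CPM against 9.501 ± 8.29 in progenitors. Ube2l6, a conjugating enzyme, stood at 346 ± 93.8 against 22.5 ± 10.2.

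Many S phase genes were higher in both classes than in other cells on the TMM scale, and few genes of G2 and mitosis were. Of 39 S phase genes 17 were higher and 2 lower in erythroid cells, with a median log2 fold change of 0.80 against -0.23 for all genes, and 9 were higher without E10 replicate 3. In progenitors 16 were higher and 1 lower, with a median of 0.67 against -0.17. Scaling by totals, which moved the median of all genes down, left 1 higher and 5 lower in erythroid cells, with a median of 0.0443 against -0.997 for all genes, and 8 and 2 in progenitors, with 0.40 against -0.46. Of 51 genes of G2 and mitosis 7 were higher and 0 lower in erythroid cells, and 6 and 3 in progenitors, shares of higher genes near those of all genes (12.9% and 13.7%). Between the classes 0 of the 39 S phase genes were higher and 2 lower, beside 2.85% and 2.48% of all genes. The 2 were Cdca7 and Hells, at -1.61 and -1.19. At an unadjusted p under 0.05 over all genes this comparison held 2087 of 11011 genes, against 587 after adjustment. Mki67, the proliferation marker, stood at 570 ± 177 CPM in erythroid cells, 234 ± 45.1 in progenitors and 208 ± 67.3 in other cells, a class difference of 1.25 (SE 0.23). These counts do not say how many cells were cycling.

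Genes of the surrounding tissues were lower in both classes. Of 14 mesenchymal genes 12 were lower in erythroid cells and 13 in progenitors, and of 13 neural and neural crest genes 11 and 13, with 0 higher in any of these. Col1a2, a collagen chain, stood at 17.8 ± 7.38, 14.7 ± 6.84 and 141 ± 64.9 CPM in erythroid, progenitor and other cells. Between the classes Fn1, fibronectin, was the only mesenchymal gene that passed. It stood at 81.8 ± 19.7 CPM in erythroid cells and 15.2 ± 11.3 in progenitors, a difference of 2.52. Immediate early genes, which answer handling and growth signals within minutes, were lower in 14 of 20 cases in erythroid cells and in 18 of 20 in progenitors, with 0 higher. The erythroid count was 9 without E9.5 replicate 2. Fos stood at 301 ± 363 CPM in erythroid cells, 107 ± 100 in progenitors and 861 ± 261 in other cells. Between the classes 3 of the 20 were higher in erythroid cells and 0 lower, but 0 were higher and 2 lower by totals. Cell adhesion followed, with 10 of 14 genes lower and 1 higher in erythroid cells and 7 lower and 3 higher in progenitors, the 3 being Icam2, Cd44 and Itga4.

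**Figure D5:**
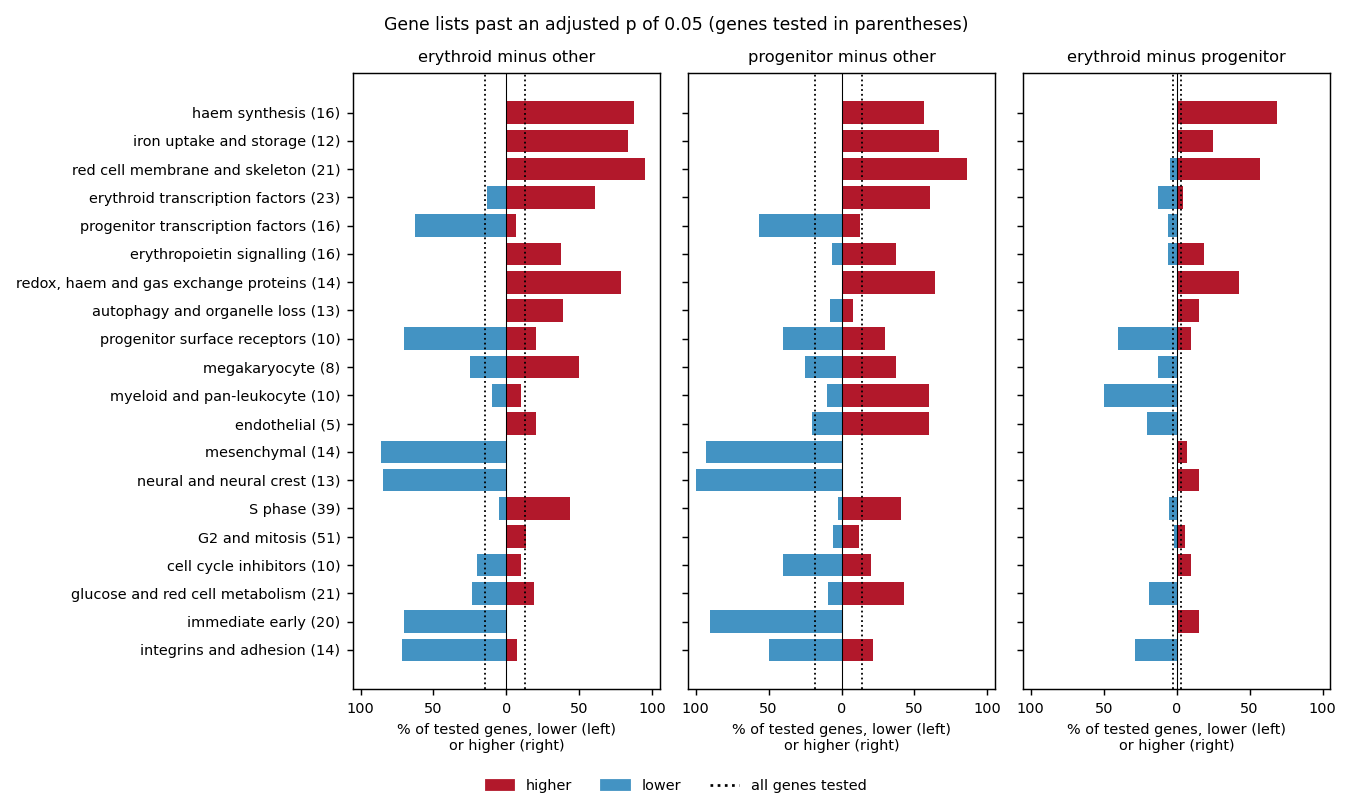
Percent of the tested genes of each list that were higher (right) or lower (left) at an adjusted p of 0.05 in 3 comparisons, on the TMM scale, with the percent over all 11011 genes as dotted lines. Haem, iron, membrane and redox lists lie far to the right of the dotted line in both comparisons with other cells. Of the 27 genes of the white cell list 10 were tested, of which 6 were higher in progenitors and 1 in erythroid cells. A gene could enter the tests through 1 class alone, so this bar does not stand for the whole list.

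The largest rises by the naming rule differed between the classes. In erythroid cells against other cells the 10 largest were Prokr1, Slc52a3, Pdzk1ip1, Tmem184a, Trim10, Slc4a1, Csf2rb, Hemgn, Grap2 and BC021767, with log2 fold changes of 5.94 to 6.55 in 3 of 3 batches. Hemgn, hemogen, a nuclear protein of red cell precursors, stood at 894, 949 and 878 CPM in the erythroid sums of the 3 batches and at 19.6, 97.1 and 37.6 in the progenitor sums. Pdzk1ip1, a small membrane protein, stood at 362, 224 and 272 CPM in the erythroid sums and at 4.04, 17.0 and 1.43 in the progenitor sums. Of the 10 lowest, 9 were at 0 in the erythroid sums, so that their fold is a lower bound. Zfp442 was at least 19.7-fold lower than in other cells, against a floor of 3 counts over the summed class, and did not pass when E9.5 replicate 2 or E10 replicate 2 was left out.

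In progenitors against other cells the 10 largest rises were Fyb, Samsn1, Tspo2, Abcb4, 1110028F11Rik, Tnfaip2, Icam2, Gdf3, Btk and Was, with log2 fold changes of 6.999 to 7.85 in 3 of 3 batches. Several are known from white cells, as the adaptor Fyb and the kinase Btk. Tnfaip2, a gene first found by its answer to tumour necrosis factor, stood at 185, 416 and 399 CPM in the progenitor sums of the 3 batches, 1.09, 12.9 and 2.99 in the erythroid sums and 1.64, 6.39 and 0.821 in the sums of other cells (7.28, SE 0.49, adjusted p 7.93e-10 by edgeR). In every one of the 3 batches the lowest progenitor had more Tnfaip2 than the highest other cell. Abcb4, a phospholipid transporter, stood at 40.4, 87.0 and 121 CPM in the progenitor sums and at most 3.84 CPM in the erythroid sums and 2.31 in those of other cells. Tspo2, a cholesterol-binding protein of erythroblasts, stood at 27.7, 28.1 and 51.9 CPM in the progenitor sums and at 0.546, 2.99 and 0 in the erythroid sums. The 10 lowest, led by Grem1, a BMP inhibitor of mesenchyme, were all at 0 in the progenitor sums. Grem1 was at least 35.4-fold lower, and it did not pass with Myb and Gfi1b limits of 15 CPM or without E10 replicate 2.

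Between the classes the leading genes of erythroid cells were Terc, Zfp612, Gm2061, Hsd3b6, 1700026L06Rik, Pdzk1ip1, Slc4a1, Grap2, Adra2b and Csf2rb. Terc, the RNA of telomerase, had 7.64, 4.69 and 18.2 CPM in the erythroid sums and 0 in the progenitor sums, at least 25.6-fold, and lost its call without any 1 of the 3 batches. Hsd3b6, an enzyme of steroid synthesis, stood at 209, 145 and 196 CPM in the erythroid sums and at 1.15, 8.15 and 1.43 in the progenitor sums (5.96, SE 0.56). The leading genes of progenitors were Fyb, 1110028F11Rik, Adap1, Sh2d4a, Abcb4, Tnfaip2, Was, Ubash3a, Dock8 and Ptpn7. Ubash3a, a negative regulator of T cell signalling, stood at 7.51, 47.1 and 55.7 CPM in the progenitor sums and at 0, 2.85 and 0.249 in the erythroid sums, and did not pass without the batch term.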

How the data were processed

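Single cells from 5 batches were analysed. Per the submitters' processing notes, reads were handled with CASAVA 1.8, TopHat2 2.0.12 and HTSeq on mm10. The deposited values are whole-number counts of molecules (UMI counts) per gene and well, which the authors did not normalize, and the strand setting is not given in the sources used here, so overlapping and antisense genes cannot be told apart. The 95 rows of spike-ins (ERCC) and of RGC names were left out of totals. Cells were kept with at least 1000 genes and 30000 UMIs, without a doublet caller, as cells were picked by hand. Counts of the 24411 genes were summed per batch and class with at least 3 cells, and fitted in 1 model with edgeR 4.0.16 (quasi-likelihood, batch term, TMM scaling, filterByExpr, Benjamini-Hochberg 0.05, 4 residual degrees of freedom) in R 4.3.3. Levels of sums are TMM-scaled CPM, and levels of cells are plain CPM. DESeq2 1.42.0, other scalings, filters and limits, and left-out batches were alternatives. On simulated data the fit recovered 92% and 86.6% of genes changed by 2 on the log2 scale for erythroid and progenitor cells against other cells, and 100% of those changed by 4. Of the calls, 1.55% and 6.15% were unchanged genes. The simulated counts had the same mean profile in every sum, the same spread for every gene, no batch differences and few changed genes. The data differ in these points, so the rates cannot be carried over to them. No batch is paired by number, since the numbers follow the order of deposit.

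The cells and gene lists were chosen with earlier results of these data known. The naming rule took, for each comparison, the 10 largest called log2 fold changes each way, of genes that averaged 10 counts or more per sum and moved alike in every batch, up to 4 members of each list, the sort antigens, the globins and 8 cell markers. Further list members named in the text were chosen after their values were seen. Some of the genes that the naming rule took are not reported here.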

Additional observations from a re-analysis of the deposited data

Results flagged for a closer look

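The table lists 3 rows named RGC-GFP, RGC-mRFP and RGC-CRE beside the mouse genes, and the embryos are labelled wild type. RGC-GFP exceeded 3 counts in 25 kept cells, all in E10 replicate 1, with 127 counts in the single erythroid cell of that batch and up to 1569 in another cell. In the other 4 batches no kept cell had more than 1 count. RGC-mRFP exceeded 3 counts in 4 kept cells, all in E9.5 replicate 1, among them its single erythroid cell with 6 counts. Neither single erythroid cell entered a gene test. In E9.5 replicate 2, which entered the gene tests, RGC-mRFP had at most 3 counts in a kept cell. Its counts summed to 16 over 10 erythroid cells, 4 over 4 progenitors and 14 over 32 other cells.

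Outside the kept cells, 5 wells passed the Alas2 limit with over 3 Alas2 UMIs. One was in E9.5 replicate 1 with 5533 UMIs in all, 3 were in E10 replicate 2 with 12616 to 28759 UMIs, and 1 was in E10 replicate 3 with 3344 UMIs. The first 4 are among 23 wells called repeat wells, of at least 5000 UMIs each. A repeat well held under 10% of the UMIs of the like-numbered well in a different batch. It also correlated best with that well among the wells of that batch.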

How the results depend on the processing

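Leaving out the batch term (no replicate block) gave 1994 changed genes for erythroid against other cells, 2629 for progenitors against other cells and 256 between the classes, against 3002, 3484 and 587 with it. Leaving out a batch gave 1383 to 2545, 1879 to 2774 and 314 to 618 genes, with the lowest count without E9.5 replicate 2 in each, and 2001 for erythroid against other cells without E10 replicate 3. Between the classes DESeq2 gave 1022, scaling by totals 1372 and 1 cell per sum 304. Sums of at least 10 cells left no progenitors. E9.5 replicate 1 and E10 replicate 1 gave no sums, so leaving them out changed no gene test.

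The stage difference in erythroid share turned to -4.89 points without E9.5 replicate 1 and -3.49 without E10 replicate 2. Over the left-out batches it ran from -4.89 to 13.01 points, and the progenitor difference from -3.87 to 4.83. The progenitor difference turned to -0.493 with 5000 UMIs per cell, -0.909 with Myb and Gfi1b limits of 60 CPM, -3.87 without E9.5 replicate 1 and -1.97 without E10 replicate 2.

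Of 91 single-gene results 82 passed the threshold, 51 of these passed under every setting run, and 31 did not pass in at least 1. That was 21 results without E9.5 replicate 2, 18 without E10 replicate 2, 10 without E10 replicate 3, 9 without the batch term and at most 5 in any other setting. The 8 results whose log2 fold change turned sign had not passed. For Gata1 between the classes it was 0.0314 with RLE scaling, 0.0357 by DESeq2, 0.0213 with no low count filter, 0.18 with 1 cell per sum, 0.0360 with an Alas2 limit of 800 CPM, 0.0342 and 0.0235 with Myb and Gfi1b limits of 15 and 60 CPM, 0.000779 without E9.5 replicate 2 and, over the left-out batches, -0.122 to 0.0873. For progenitors against other cells, Hba-x was 0.29 with 1 cell per sum and -0.105 to 0.0423 over the left-out batches, Hbb-y was 0.21 with 1 cell per sum, Hbb-bh1 was -0.0622 by totals and -0.22 with an Alas2 limit of 800 CPM, and Slc4a1 was -0.0589 and -0.77 in the same settings. Itga2b between the classes was -0.0342 by totals, -0.68 without the batch term and -0.94 to 1.62 over the left-out batches, the lowest without E10 replicate 3. For erythroid against other cells Runx1 was -0.53 by totals and Spn -0.28 with Myb and Gfi1b limits of 60 CPM. The cause of these changes was not tested. Scaling by totals, and leaving out repeat wells in the gene tests or RGC-GFP cells in the shares, were chosen after seeing the data. The membrane genes higher in erythroid cells than in progenitors numbered 7 without the batch term and 17 without E10 replicate 3, against 12. Counts near the floor limit single genes such as Spn and Terc.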
